A study of Mus musculus with 5 samples.

Results

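Rab GTPases were followed in F9, a line of mouse embryonal carcinoma cells that turn into extra-embryonic endoderm under retinoic acid. Members were all genes whose symbol in the array's probe annotation is Rab followed by a number and at most 1 letter. This gave 53 genes with 69 probes, of 15967 named genes in a table of 24613 probes. Rab regulators with longer symbols, such as Rab3il1, are not members and were described separately. The arrays came from 2 samples of control F9 cells and 3 samples of F9 cells with a joint knockdown of Sox7 and Sox17. Retinoic Acid is the treatment given for every sample, control and knockdown alike. The sources used here do not give its dose and duration, the means of knockdown, or what the control cells received. Sox7 and Sox17 are related transcription factors of endoderm and endothelium, and the design asks which transcripts depend on the pair. The labels do not state that the samples were separate cultures, so the p-values measure a spread that may be technical.

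Rab proteins are small GTPases that mark membrane compartments and direct the vesicles that move between them. In the GTP-bound form they sit on a membrane and recruit effectors such as tethers, motors and lipid kinases. Exchange factors load GTP, GTPase-activating proteins trigger its hydrolysis, and GDI proteins carry the GDP-bound form through the cytosol. Visceral endoderm is known for heavy apical endocytosis and lysosomal digestion, and parietal endoderm for secreting a thick basement membrane, so both rely on Rab-directed traffic.

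Values are the deposited normalized intensities, which are linear and background-subtracted. Differences are knockdown minus control on a log2(intensity + 16) scale, on which changes of dim probes come out too small. A probe was tested when it lay above its array's noise threshold, 20.1 to 20.2 intensity units, on at least 2 of the 5 arrays. Each gene stood by its brightest tested probe, and a gene was called at a limma adjusted p below 0.05, with Benjamini-Hochberg adjustment over all 13624 tested probes. Levels of different probes were not compared with each other, because probes differ in brightness for equal amounts of RNA.

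The knockdown was visible in its targets. Sox17 had 1798 and 1732 intensity units in the control arrays and 283, 309 and 243 in the knockdown arrays. Sox7 had 1306 and 1152 in control arrays and 490, 403 and 471 in knockdown arrays. Neither gene had overlapping groups. Arrays correlated at 0.992 to 0.993 within a group and at 0.974 to 0.978 between groups. Of the pluripotency markers, Pou5f1, the factor Oct4, had means of 6570.5 and 7614 in control and knockdown cells and was not called. Nanog had 10157 and 14001 and was called (limma adjusted p = 0.039). These 2 genes do not by themselves check the F9 label.

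Endoderm markers moved with the knockdown, in the same arrays in which the Rab genes were compared. All 12 tested parietal and primitive endoderm markers fell, the targets Sox7 and Sox17 among them, and the summed intensity of all 13 with a probe was 99716 to 100746 in control arrays against 25994 to 29384 in knockdown arrays. The sums of the 8 visceral endoderm markers with a probe were 3616 to 3993 against 1072 to 1219, and 4 of the 5 tested fell. Of 9 pluripotency markers 3 rose and 1, Lin28a, fell, by 1.05 (limma adjusted p = 0.0083). Their sums were 38396 to 42039 against 47359 to 48373. The largest part was Esrrb, which was not called (limma adjusted p = 0.36), with means of 19760 and 21865. Of 6 tested mesenchymal and fibroblast markers 4 rose, with sums over 10 markers of 9482 to 11046 against 13283 to 14392. Most of these sums was Vim, which was not called (limma adjusted p = 0.18). It had 10135 and 8527 in control arrays and 11059, 10760 and 11671 in knockdown arrays. Of 5 tested neural markers 3 rose and 1 fell, with sums over 10 markers of 551 to 600 against 1117 to 1142. Lama1, Ttr, Nefm and Neurod1, all called, passed the filter only through the group where they were higher, so they had to differ. Apoa4, Tagln, Col1a2, Col3a1, Pax6 and Sox1 were at or below 0 on every array. In such bulk RNA, fewer cells of a type and less RNA per cell cannot be told apart, and the part of these markers in the Rab results was not tested.

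Of the 53 Rab genes, 43 had a tested probe. Among these, 8 were called, 4 higher and 4 lower in knockdown cells, and 35 were not called. Rab32, Rab33b, Rab1a and Rab11a fell, and Rab37, Rab39, Rab29 and Rab8b rose. Rab37 is counted here although it passed the filter on dim probes through the knockdown arrays alone and so had to differ. The share called was 18.6%, beside 17.0% of all 9685 genes tested, so the family was called about as often as genes in general. Over all genes 8.99% were called higher and 7.97% lower. The median difference of the 43 Rab genes was -0.083, beside 0.0047 over all genes. Of the Rab genes, 60.5% had a difference below 0, beside 49.5% of all genes. Of the 43 tested Rab genes 2, Rab32 and Rab37, differed by at least 1 on the log2 scale, a size that 4.35% of all genes reached.

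**Figure D1:**
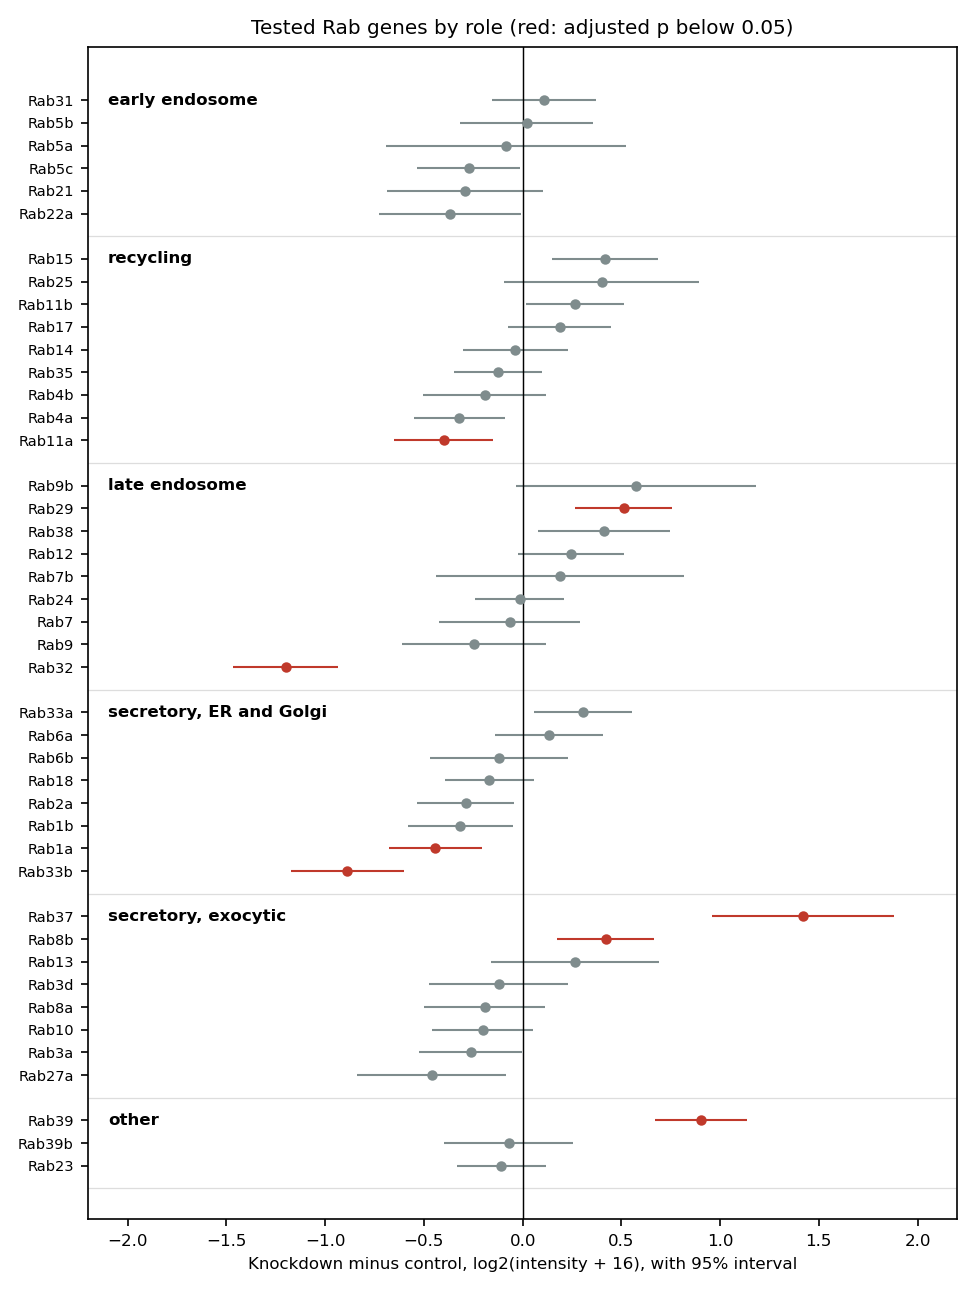
Difference between knockdown and control on the log2(intensity + 16) scale (x axis) for each of the 43 tested Rab genes (y axis), grouped by role, as points with 95% intervals from limma. Red marks the 8 called genes, which run from -1.20 for Rab32 to 1.42 for Rab37, while the uncalled genes lie between -0.46 and 0.57.

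Among Rab genes of early endosomes, where incoming cargo is first sorted, 0 of 6 were called by limma, beside 17.0% of all genes. Rab5c and Rab22a of this role had a limma p below 0.05 before adjustment only. Rab5c, an isoform of the GTPase that drives early endosome fusion, had 4084 and 4296 intensity units in control arrays and 3652, 3189 and 3562 in knockdown arrays. All knockdown values were below both control values, yet the difference of -0.27 did not pass (SE 0.106, limma adjusted p = 0.14). The other Rab5 isoforms had differences of -0.083 for Rab5a and 0.020 for Rab5b, with 95% intervals from -0.69 to 0.53 and from -0.32 to 0.36. Rab22a, which acts between early and recycling endosomes, had 99.2 and 104 against 70.5, 64.3 and 92.1, a difference of -0.37 (limma adjusted p = 0.15). Rab21, known for integrin traffic through early endosomes, had a difference of -0.29 (adjusted p = 0.27). Rab31, which links the trans-Golgi network to endosomes, had 0.11 (adjusted p = 0.54) and overlapping groups.

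Of 9 recycling Rab genes, which return cargo to the cell surface, Rab11a was the member called (11.1%, beside 17.0% of all genes). Rab11a, the main GTPase of the recycling endosome, had 504 and 441 intensity units in control arrays. Its knockdown values were 347, 357 and 357, all below both controls. It fell by 0.40 (SE 0.103, limma adjusted p = 0.0498), which is 75.8% of the control level on this scale. That p lies at the threshold. The call was lost with any 1 array left out (adjusted p from 0.10 to 0.22).

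The paralog Rab11b stood on the other side of 0. It had 6486 and 5983 intensity units in control arrays and 7254, 7304 and 7935 in knockdown arrays, a difference of 0.27 (limma adjusted p = 0.13). Its 95% interval ran from 0.018 to 0.51, and that of Rab11a from -0.65 to -0.15. The difference between the paralogs was not tested. Rab15, known for slowing receptor recycling, had 762 and 872 against 1143, 1025 and 1115. Its groups did not overlap, and its difference of 0.42 just missed the threshold (limma adjusted p = 0.054). Rab4a, the GTPase of fast recycling, had 2015 and 2028 against 1542, 1647 and 1662, a difference of -0.32 (limma adjusted p = 0.072). Rab25, an epithelial relative of Rab11, had 29.7 and 53.6 against 57.2, 50.6 and 68.7, so its groups overlapped at a difference of 0.40. Rab4b, Rab14, Rab17 and Rab35 had differences of -0.19, -0.037, 0.19 and -0.12 and were not called.

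Late endosome and lysosome Rab genes held the largest fall of the family. Rab32 directs cargo to lysosome-related organelles such as melanosomes. It had 236 and 271 intensity units in control arrays and 108, 98.6 and 96.6 in knockdown arrays. The groups were far apart and the knockdown arrays close together. Rab32 fell by 1.20 (SE 0.109, 95% interval from -1.47 to -0.93, limma adjusted p = 0.0022), to 43.5% of the control level on this scale. With each array left out it lay between -1.30 and -1.11 and kept its call.

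Rab38, which shares with Rab32 a role in melanosome biogenesis, was not called. It had 40.3 and 56.7 against 73.5, 68.7 and 65.4, with no overlap. The difference was 0.41 (95% interval from 0.079 to 0.74, limma adjusted p = 0.096). Rab29, which binds the kinase Lrrk2 and acts at lysosomes and the trans-Golgi network, rose. Its values were 540 and 495 in control arrays and 741, 778 and 712 in knockdown arrays, a rise of 0.51 (SE 0.101, limma adjusted p = 0.023). The call was lost with any 1 array left out (adjusted p from 0.054 to 0.14).

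The core late endosome GTPase Rab7 was not called. Its brightest probe had 1854 and 1598 against 1409, 1731 and 1824, a difference of -0.065 with overlapping groups, and its other probes had -0.19 and -0.26. Rab9, which acts in retrieval from late endosomes to the Golgi, had -0.25 (adjusted p = 0.31). Rab9b had 19.7 and 48.4 against 57.2, 48.4 and 61.0, a difference of 0.57 whose 95% interval, from -0.034 to 1.18, was the one among uncalled genes that reached past 1. Rab12, which steers receptors to lysosomes, Rab24, linked to autophagy, and Rab7b had differences of 0.24, -0.016 and 0.19. In this role 2 of 9 tested genes were called (22.2%, beside 17.0% of all genes).

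Of the 8 tested Rab genes of the endoplasmic reticulum and Golgi, 2 fell and 0 rose, where 7.97% of all genes fell and 8.99% rose. Rab33b, a Golgi GTPase that also binds the autophagy protein Atg16l1, had 693 and 809 intensity units in control arrays and 367, 414 and 413 in knockdown arrays. The knockdown arrays lay close together and far below the controls. It fell by 0.89 (SE 0.117, limma adjusted p = 0.0071), to 54.0% of the control level on this scale. The call held without any 1 array other than control replicate 2, where the difference was -0.78 (adjusted p = 0.055). Rab1a, required for transport from the endoplasmic reticulum to the Golgi, had 2774 and 2909 against 2185, 2074 and 2003. It fell by 0.44 (SE 0.0971, limma adjusted p = 0.032), a call lost with any 1 array left out (adjusted p from 0.057 to 0.16).

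Several uncalled genes of this role lay below 0 without overlap between the groups. Rab1b, the paralog of Rab1a, had 1692 and 1608 against 1236, 1295 and 1442, a difference of -0.32 (limma adjusted p = 0.10). Rab2a, which acts in traffic at the Golgi, had 8409 and 8889 against 7268, 7329 and 6641, a difference of -0.29 (limma adjusted p = 0.11). Rab18, found on lipid droplets and the endoplasmic reticulum, had -0.17. In this role, as in the exocytic one, 6 of 8 genes had groups that did not overlap, and in the whole family 27 of 43 (62.8%), beside 51.6% of all genes. Rab33a, the paralog of Rab33b, had 45.7 and 52.5 against 67.4, 64.9 and 60.9, a difference of 0.31 (95% interval from 0.056 to 0.56, limma adjusted p = 0.098). Rab6a and Rab6b, Golgi GTPases of retrograde transport, had differences of 0.13 and -0.12.

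Of the 8 tested exocytic Rab genes, 2 rose and 0 fell, beside the same shares of all genes. Rab37, a GTPase of secretory granules, had 8.06 and 15.9 intensity units in the control arrays, under the noise threshold in each. Its knockdown values were 50.1, 52.5 and 74.3, all above it. Rab37 was at least 2.88-fold higher (limma adjusted p = 0.0074), and the fitted difference was 1.42 (SE 0.189). It entered the test through the knockdown arrays alone, so it had to differ. Rab8b, which carries vesicles to the plasma membrane, had 1206 and 1282 against 1617, 1614 and 1781. It rose by 0.42 (SE 0.102, limma adjusted p = 0.042), and its other tested probe rose by 0.38 (adjusted p = 0.043). The call of the brightest probe was lost with any 1 array left out (adjusted p from 0.080 to 0.18).

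The paralog Rab8a was not called. Its brightest probe had a difference of -0.19 (95% interval from -0.50 to 0.11) and its other tested probe 0.19, so the probes disagreed in sign. Rab27a, which docks secretory granules and lysosome-related organelles, had 399 and 483 against 370, 279 and 300, a difference of -0.46 (limma adjusted p = 0.098). Rab13, a GTPase of tight junction traffic, had 86.9 and 54.9 against 83.6, 81.7 and 95.6, a difference of 0.27 with overlapping groups. Rab3a, Rab3d and Rab10, which act in regulated secretion and in delivery to the plasma membrane, had differences of -0.26, -0.12 and -0.20.

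Of the Rab genes not assigned to these roles, 1 of 3 tested was called, beside 17.0% of all genes. Each gene was assigned 1 role, and Rab39 was not counted with the endosomes. The counts per role depend on this assignment. Rab39, linked to phagosomes and late endosomes, had 210 and 202 intensity units in control arrays and 416, 397 and 384 in knockdown arrays. The knockdown values were close to each other and far above the controls. Rab39 rose by 0.90 (SE 0.0954, limma adjusted p = 0.0036), to 187% of the control level on this scale, and kept its call with each array left out (0.87 to 0.93). Rab39b, its paralog on the X chromosome, had -0.071 (95% interval from -0.40 to 0.26). Rab23, an inhibitor of hedgehog signalling, had -0.11.

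**Figure D2:**
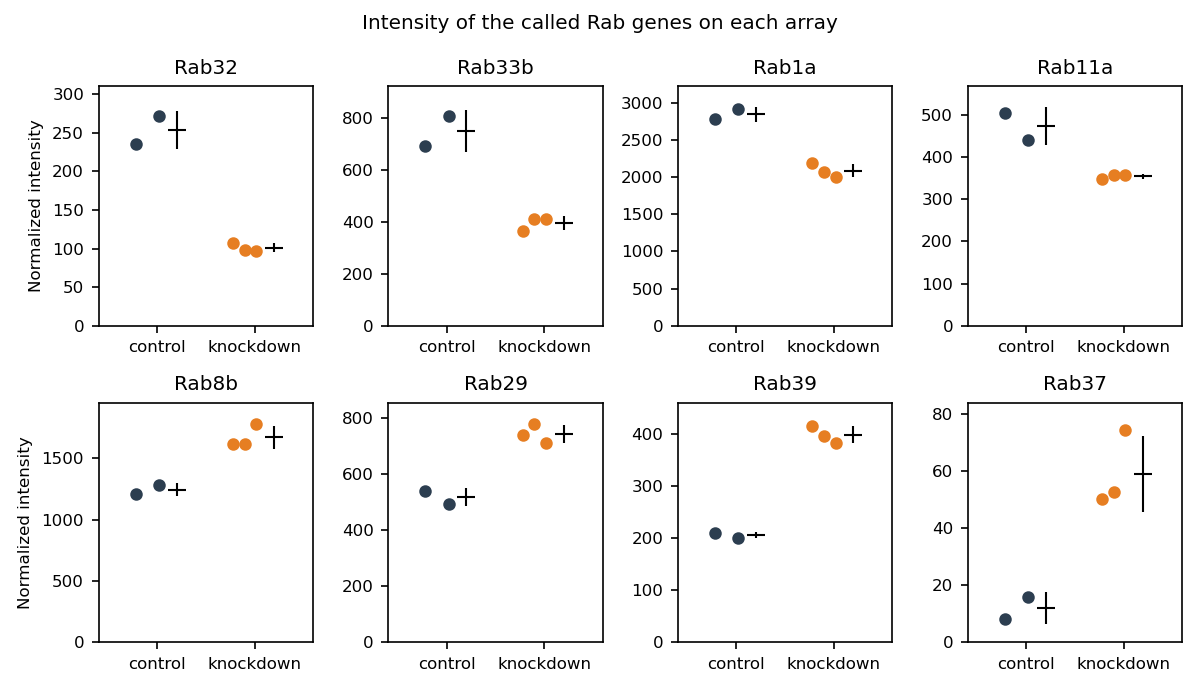
Normalized intensity (y axis, linear from 0, with its own range in each panel) of the 8 called Rab genes in control and knockdown arrays. Points are arrays and the bar beside them is the mean with its SD (n = 2 and n = 3). In each panel the groups do not overlap, as in Rab32, at 236 and 271 against 96.6 to 108.

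**Figure D3:**
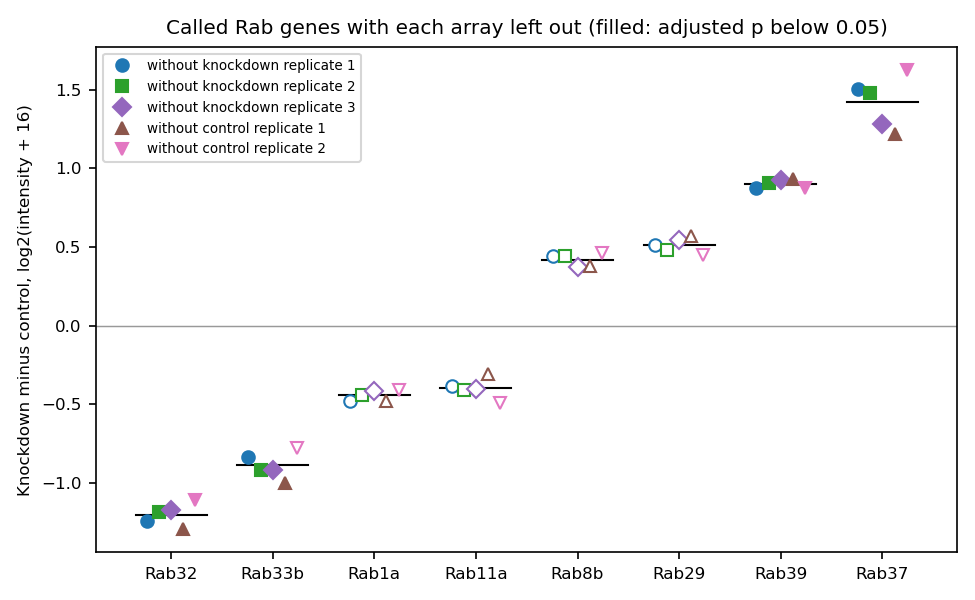
Difference between knockdown and control on the log2(intensity + 16) scale (y axis) for the 8 called Rab genes (x axis) with each of the 5 arrays left out. Black lines are the values from all 5 arrays and filled symbols mark an adjusted p below 0.05. Rab32 and Rab39 kept their call each time, as did Rab37, which was tested through its knockdown arrays alone. Rab33b lost it without control replicate 2, and Rab1a, Rab11a, Rab8b and Rab29 lost it each time.

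Leaving out any 1 knockdown array left 4 Rab genes called in place of 8. The corresponding count over all genes was 882 to 1107 in place of 1643, so the called Rab genes became fewer along with those of the whole table. The 4 Rab genes were Rab32, Rab39, Rab33b and Rab37, the last tested through its knockdown arrays alone. Without a control array that group is a single array, and the spread comes from the knockdown arrays alone. Without control replicate 2 Rab33b lost its call, and Rab9b, uncalled in the main setting, gained one at a difference of 1.00. Of the 35 uncalled genes, 34 had a 95% interval inside plus or minus 1 on the log2 scale. The exception was Rab9b. An interval inside plus or minus 0.5 was reached by 15 of them.

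The 10 untested genes had probes too dim for a difference. These were Rab36 of the late endosome role, Rab19, Rab2b, Rab30 and Rab43 of the endoplasmic reticulum and Golgi, the exocytic Rab3b, Rab3c and Rab27b, and Rab20 and Rab40b. Rab20, an endosomal GTPase, had 20.1 and 20.2 against 9.08, 11.3 and 12.8, and was above the threshold on 1 array. Rab2b was above it on knockdown replicate 3 alone, at 39.5. Among the 7 genes with over 1 tested probe, no probes of a gene differed in call.

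Promoters of the called genes were read from RefSeq's GRCm38.p6 annotation, which held windows of 300 bases, from 250 before to 50 after the start, for 44 of the 53 genes and for 7 of the 8 called ones. They were searched on either strand for ACAAT, the core letters bound by SOX proteins, and for CACGTG, the E-box bound by lysosomal gene regulators of the Mitf family. The windows of the most strongly changed genes with an entry, Rab32 and Rab39, are shown beside those of Rab11a and Rab29, which hold the SOX core. Capitals mark that core on either strand.
Rab32: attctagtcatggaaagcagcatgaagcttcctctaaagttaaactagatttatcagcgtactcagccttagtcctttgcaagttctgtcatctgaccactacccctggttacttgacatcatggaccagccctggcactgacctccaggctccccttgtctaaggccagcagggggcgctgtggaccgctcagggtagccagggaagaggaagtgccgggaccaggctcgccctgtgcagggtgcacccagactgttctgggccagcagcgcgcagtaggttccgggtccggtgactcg
Rab39: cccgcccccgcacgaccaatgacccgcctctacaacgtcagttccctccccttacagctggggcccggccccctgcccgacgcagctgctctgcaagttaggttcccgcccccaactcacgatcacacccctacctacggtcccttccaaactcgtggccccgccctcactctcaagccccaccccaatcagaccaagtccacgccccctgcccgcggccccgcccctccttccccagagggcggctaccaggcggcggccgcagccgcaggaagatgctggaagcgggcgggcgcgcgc
Rab11a: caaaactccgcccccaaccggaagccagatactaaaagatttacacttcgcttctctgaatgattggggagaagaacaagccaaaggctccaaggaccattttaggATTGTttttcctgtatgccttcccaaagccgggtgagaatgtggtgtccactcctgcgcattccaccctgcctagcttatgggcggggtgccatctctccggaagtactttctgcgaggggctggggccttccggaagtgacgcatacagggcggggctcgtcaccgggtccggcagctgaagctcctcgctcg
Rab29: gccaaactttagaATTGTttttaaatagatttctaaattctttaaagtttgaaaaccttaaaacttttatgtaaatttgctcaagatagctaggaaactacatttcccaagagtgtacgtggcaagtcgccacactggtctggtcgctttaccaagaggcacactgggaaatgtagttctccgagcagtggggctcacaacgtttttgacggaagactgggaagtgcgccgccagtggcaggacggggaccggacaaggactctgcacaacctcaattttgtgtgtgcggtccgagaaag
The windows are Rab32 at chr10:10558158-10558457, minus strand, Rab39 at chr9:53706183-53706482, minus strand, Rab11a at chr9:64737707-64738006, minus strand, and Rab29 at chr1:131867027-131867326, plus strand. The core begins 144 bases before the start in Rab11a, which fell, and 237 bases before it in Rab29, which rose. The windows of Rab32, Rab33b, Rab39, Rab1a and Rab8b do not hold these letters. The core was present in 2 of the 7 called genes' windows and in 10 of all 55 Rab windows (18.2%), beside 31.0% of 32851 promoter windows. CACGTG was in 0 of the 7 called windows and in 6 of the 55 (10.9%), beside 7.2% of all promoters. The windows of Rab39 and Rab33b had a GC content of 70.7% and 70.0%, that of Rab32 57.3% and that of Rab29 45.3%. A match describes letters and not a bound site.

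Regulators of the Rab cycle were followed in lists of genes with a probe on the array. Of 33 tested exchange factors, 2 rose and 4 fell (18.2% called, beside 17.0% of all genes), with a list median of -0.022. Rab3il1, an exchange factor for Rab8 and Rab3a, had 277 and 240 intensity units in control arrays and 47.4, 60.6 and 59.5 in knockdown arrays. It fell by 1.93 (SE 0.130, limma adjusted p = 0.00096). Its other probes were under the noise threshold on every knockdown array and at least 1.99-fold and 2.91-fold lower there. Both passed the filter through the control arrays alone and so had to differ (limma adjusted p = 0.0040 and 0.0061). Its relative Rab3ip, the exchange factor Rabin8, had a difference of -0.058 (adjusted p = 0.71). Of its substrates, Rab8b rose as given above, and Rab8a and Rab3a were not called.

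Exchange factors of Rab5 fell in part. Rin3 had 362 and 344 against 206, 143 and 182 and fell by 0.95 (limma adjusted p = 0.014). Rin1 had 186 and 214 against 96.8, 106 and 87.7 and fell by 0.94 (limma adjusted p = 0.0065). The ubiquitous Rab5 exchange factors Rabgef1 and Gapvd1 had differences of -0.034 and -0.018, with 95% intervals from -0.29 to 0.22 and from -0.30 to 0.26. Dennd2a, of a family of Rab exchange factors, had 448 and 387 against 746, 686 and 723 and rose by 0.76 (limma adjusted p = 0.0090). Mon1a, part of the Rab7 exchange factor, fell by 0.49 (adjusted p = 0.046), and Dennd6a rose by 0.63 (adjusted p = 0.044). Both were named after their values were seen. With 1 array left out the call of Dennd6a was lost each time, and that of Mon1a each time except without knockdown replicate 2. Calls of Rin1 and Dennd2a were lost without control replicate 2, and that of Rin3 without either control array.

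Of 12 tested effectors of recycling endosomes, 3 fell and 0 rose (25% called, beside 17.0% of all genes), with a median of -0.13. Without control replicate 2 the count was 1. Myo5b, the motor that binds Rab11 and carries recycling endosomes, had 98.7 and 85.3 intensity units against 37.0, 29.1 and 23.6, with a wide gap between the groups. It fell by 1.24 (SE 0.149, limma adjusted p = 0.0053) and kept its call with each array left out. With no filter on dim probes, where 4.82% of all genes were called, Myo5b was not called. Exoc6, an exocyst subunit that binds Rab11, had 428 and 438 against 251, 216 and 240 and fell by 0.84 (limma adjusted p = 0.0061), and without control replicate 2 it had adjusted p = 0.052. Rab11fip4, a Rab11-binding adaptor, fell by 0.42 (adjusted p = 0.035) but lost its call with any 1 array left out. Myo5a, another myosin V, had a difference of 0.16 and Rab11fip5 had -0.17, and neither was called.

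The list of late endosome effectors also holds lysosomal membrane proteins. Of its 18 tested genes 2 fell and 0 rose (11.1% called, beside 17.0% of all genes). Lamp1, a lysosomal membrane protein, had 10778 and 10315 against 6206, 7268 and 7427 and fell by 0.60 (limma adjusted p = 0.022). Plin3, which binds Rab9, fell by 0.54 (adjusted p = 0.035). For Lamp2 the brightest probe had a difference of -0.21 and was not called, whereas its dimmer probe fell by 0.92 (adjusted p = 0.0045). Of 14 tested secretory effectors 2 fell and 1 rose (21.4% called, beside the same 17.0%). Uso1, a tether that acts with Rab1, had 928 and 985 against 650, 684 and 651 and fell by 0.52 (limma adjusted p = 0.018). The golgin Golga5, another Rab1-binding protein, fell by 0.40 (adjusted p = 0.049), and Rims2, an effector of Rab3, rose by 0.56 (adjusted p = 0.049). For Gorasp2, a Golgi stacking protein, the brightest probe was not called at -0.40 (adjusted p = 0.056), and a dimmer one fell by 0.58 (adjusted p = 0.014).

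Of 12 tested genes in the list of early endosome effectors Snx3, a sorting nexin, was the one called (8.33%, beside 17.0% of all genes). It had 1310 and 1328 against 1018, 844 and 859 and fell by 0.54 (limma adjusted p = 0.032), while its dimmer probe had -0.12 and was not called. Rabep1, the Rab5 effector rabaptin-5, had -0.48 (adjusted p = 0.17). Of 27 tested GTPase-activating proteins 1 rose and 1 fell (7.41% called, beside the same 17.0%). Tbc1d24 fell by 0.53 (adjusted p = 0.020) and Sgsm1 rose by 0.44 (adjusted p = 0.034). Of 11 tested genes of the membrane cycle 1 was called (9.09%, beside the same 17.0%). It was Yipf1, a Golgi membrane protein of the Yip family, which fell by 0.47 (adjusted p = 0.044). For Yif1a, a related Golgi protein, the brightest probe had -0.24 and was not called, and a dimmer one fell by 0.36 (adjusted p = 0.049). Gdi2, which extracts GDP-bound Rab proteins from membranes, had 331 and 324 against 407, 443 and 545, a difference of 0.47 (limma adjusted p = 0.074). The prenyl transferase subunits Rabggta and Rabggtb had -0.23 and -0.15. With 1 array left out, the calls of Sgsm1, Golga5, Yipf1 and Rab11fip4 were lost each time, and those of Lamp1, Plin3, Uso1, Rims2, Snx3 and Tbc1d24 without some arrays, each control among them.

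**Figure D4:**
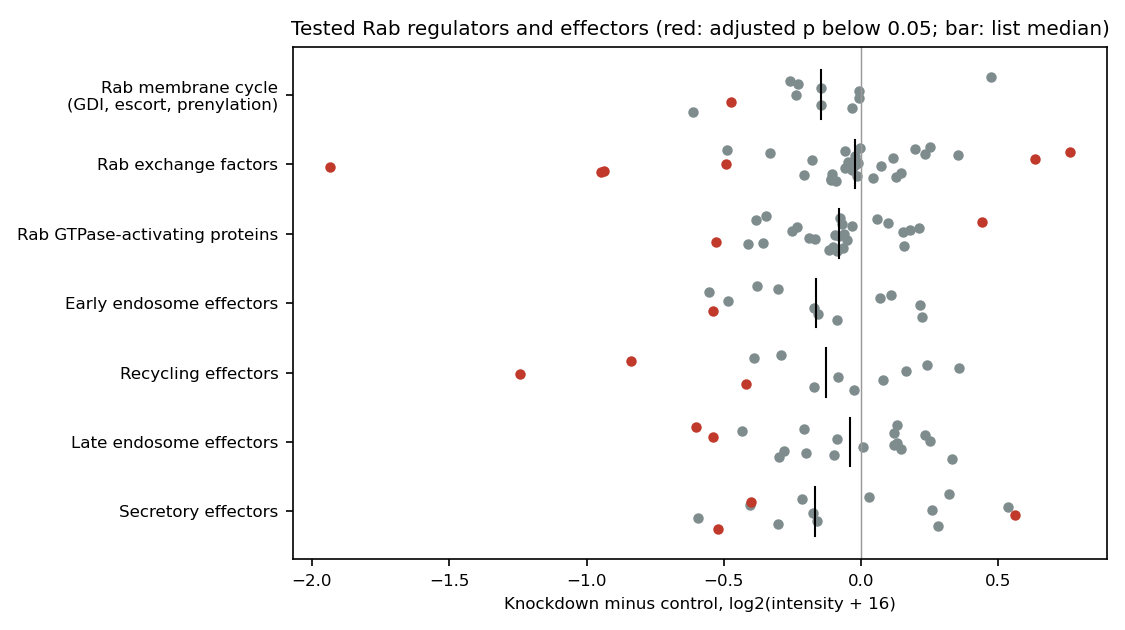
Difference between knockdown and control on the log2(intensity + 16) scale (x axis) for tested genes of 7 lists of Rab regulators and effectors (y axis). Each point is a gene, spread vertically for sight, red points are called and the bar is the list median. The list medians lie between -0.17 and -0.022, and Rab3il1 at -1.93 and Myo5b at -1.24 lie farthest to the left.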

How the data were processed

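RNA of 5 samples was labelled by the Ambion MessageAmp method and measured on Illumina arrays, per the labels' protocols. The deposited intensities are linear and had been background-subtracted and brought to a common distribution by the authors, as the values show. Their sorted values differed by at most 0.394 between arrays. The sources used here do not give the method. The 10 columns of a further table match no sample's labels and were not used.

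Values below 0 were set to 0, 16 was added and log2 taken. Each noise threshold was the 90% quantile of the sizes of an array's values below 0. Knockdown was tested against control with limma 3.58.1 in R 4.3.3 (lmFit and eBayes, 3 residual degrees of freedom), checked on simulated data. Tables and figures used Python 3.11.15, pandas 2.3.3 and matplotlib 3.10.9. An exact permutation test cannot go below p = 0.1 here. With 2 and 3 arrays, their number limits the precision. "At least" folds set the brighter group against the threshold or the own signal, whichever is higher.

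Members, roles and lists were chosen with earlier results of these data known. The naming rule took all called Rab genes, the 2 largest uncalled ones per role and up to 4 called genes per list. Every other tested Rab gene is given by its difference. Other list genes with values, such as uncalled ones and those with disagreeing probes, were chosen after their values were seen. All 53 symbols matched RefSeq. Planned protein sequences were not used here. Alternatives were other offsets, filters, scalings and priors, probe means, a replicate block and each array left out.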

Additional observations from a re-analysis of the deposited data

How the results depend on the processing

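The directions of the 8 called Rab genes held under every alternative tried in which they could be fitted, and Rab32, Rab33b and Rab39 kept their calls under all 10 alternatives other than leaving out an array. In the replicate block knockdown replicate 3 has no partner and adds nothing to the difference. Rab37 could not be fitted with the filter on all 5 arrays, and lost its call with no filter. Under cyclic loess and median centring 8 Rab genes were called, as in the main setting. The number of called Rab genes was 15 with an intensity trend in the prior (9 lower), 13 with an offset of 64 (8 lower), 4 with no filter (1 higher) and 4 with the replicate block (2 higher and 2 lower). The share of all genes called moved with it, to 27.1%, 24.9%, 4.82% and 8.55%, or 2621, 2411, 770 and 828 genes. Same-numbered arrays of the groups deviated together at correlations of 0.0072 and 0.073. Control replicate 1 and knockdown replicate 3 gave 0.065, so these values cannot show whether same-numbered arrays were paired.

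With 1 array left out, 4 Rab genes were called each time, 2 to 3 higher and 1 to 2 lower, and 443 to 1107 of all genes. Called counts then were 0 for the membrane cycle, 1 to 5 for exchange factors, 0 to 1 for GTPase-activating proteins, 0 to 1 for early endosome effectors, 1 to 2 for recycling effectors, 0 to 1 for late endosome effectors and 0 to 2 for secretory effectors. Fewer arrays lower the residual degrees of freedom.

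For the membrane cycle the count of 1 became 3 with the filter on all arrays, 4 with the trend, 0 with no filter, 0 with an offset of 4 and 3 with 64. For GTPase-activating proteins 2 became 4 with the trend, 1 with no filter, 4 with an offset of 64 and 0 with the replicate block. Early endosome effectors went from 1 to 2 with the filter on all arrays, 3 with the trend, 0 with probe means, 0 with no filter and 3 with an offset of 64. Late endosome effectors went from 2 to 4 with probe means, 0 with no filter, 1 with an offset of 4 and 0 with the replicate block. Secretory effectors went from 3 of 14 tested to 5 of 9 with the filter on all arrays, under which 23.2% of all genes were called, 5 with the trend, 1 with no filter, 1 with an offset of 4, 5 with an offset of 64, 1 with the replicate block and 1 with a robust prior. The share of all genes called was 18.5% with probe means, 13.5% with an offset of 4 and 16.6% with a robust prior. The shares for the other settings are given above. The causes were not tested.

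Among uncalled Rab genes, 10 changed sign, in 20 comparisons in all. With probe means Rab5b had -0.032 and Rab24 0.021, and with the replicate block Rab5b had -0.043 and Rab14 0.0024. With 1 array left out Rab5a ranged from -0.30 to 0.13, Rab5b from -0.043 to 0.13, Rab24 from -0.038 to 0.0062, Rab7 from -0.17 to 0.045, Rab7b from -0.11 to 0.49, Rab39b from -0.22 to 0.073, Rab14 from -0.10 to 0.0024, Rab6b from -0.28 to 0.044, Rab13 from -0.0020 to 0.54 and Rab3d from -0.26 to 0.012.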
